A study of Homo sapiens with 6 samples.

Results

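Small nucleolar RNA host genes are transcription units whose introns carry small nucleolar RNAs (snoRNAs) and whose spliced exons mostly lack a long reading frame. They were taken as the genes whose current symbol is SNHG followed by a number, with GAS5, ZFAS1, EPB41L4A-AS1 and DANCR added, and 32 of the 58243 gene identifiers in the count files fell under this rule. Of these 32 genes, 30 had enough reads to be tested. Newly made RNA had been labelled with 4-thiouridine (4sU), a uridine analogue, at 500 µM for 20 min in A375 cells, a human melanoma line, and the labelled RNA was pulled down, depleted of ribosomal RNA and sequenced with strand kept. The EV group held 3 libraries of cells stably transfected with an empty vector, and the PRL3 group held 3 libraries of cells stably transfected with a plasmid for human PRL3, the phosphatase encoded by PTP4A3. The study used the comparison to ask whether PRL3 affects the elongation of transcripts. Cells of both groups were kept in 100 µg/ml hygromycin B. The sources used here do not say whether a line was 1 clone or a pool, nor whether libraries came from separate cultures, so p-values measure only the spread between these libraries.

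snoRNAs guide the modification of ribosomal RNA and of spliceosomal RNA. C/D box snoRNAs direct 2′-O-methylation with fibrillarin, H/ACA box snoRNAs direct pseudouridylation with dyskerin, and small Cajal body RNAs (scaRNAs) act on spliceosomal RNA. In humans most of them are cut out of introns: after splicing the intron lariat is opened and trimmed back to the snoRNA, which its bound proteins protect. The spliced host RNA left over is in many hosts, such as GAS5, read by ribosomes and broken down by nonsense-mediated decay, so the exons of a host gene give short-lived RNA while its introns give stable RNA. Ribosomal protein genes and other protein-coding genes carry snoRNAs in the same way.

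Gene counts ranged from 36532207 to 57952035 in a library. PTP4A3 had 217 ± 59.4 normalized counts in EV and 24387 ± 3796 in PRL3 libraries (SD, n = 3). A normalized count is a count divided by the library's effective size (TMM) and multiplied by the mean effective size. The share of uniquely aligned reads outside annotated exons was 28.7% to 41.1% in EV and 62.8% to 69.1% in PRL3 libraries, and the share ambiguous between genes was 4.46% to 5.01% and 1.67% to 2.53%. Both shares moved with the group in every library, cannot be told apart from the group, and their part in the results was not tested. Of 8 melanocyte lineage markers, MITF, SOX10, S100B and PMEL passed the filter on low counts, and SOX10 and S100B fell in PRL3 cells. The pigment genes MLANA and TYR had 0 to 2 counts in a library, TYRP1 had 0 to 20 and DCT 1 to 11. Of 4 blood cell markers 1 was tested and none called, and of 4 epithelial markers 2 were tested and KRT14 fell (-1.31 on the log2 scale).

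In PRL3 cells 13 of the 30 tested host genes rose and 3 fell at an adjusted p under 0.05 (edgeR's quasi-likelihood test, Benjamini-Hochberg adjustment over 23884 genes). Over all genes tested 20.0% rose and 22.7% fell, over lncRNA genes 27.9% rose and 2.18% fell, and over protein-coding genes 15.2% rose and 31.6% fell. The median log2 fold change was 0.40 for the host genes, 0.11 for all genes, 0.71 for lncRNA genes and -0.15 for protein-coding genes. Of the 13 host genes that rose 7 were over 2-fold higher, and 1 of the 3 that fell was over 2-fold lower. EV and PRL3 libraries stood apart without overlap in 15 host genes that were higher and 3 that were lower, against 29.7% and 26.6% of all genes tested. The split of the calls depended on the scaling: with the sum of gene counts as library size 19 rose and 1 fell, and with all uniquely aligned reads 6 rose and 8 fell, while the median of all genes moved to 0.60 and -0.36. With all uniquely aligned reads 9 of the 16 calls were kept. Relative to that median the host genes lay between 0.28 and 0.29 higher under each of the 5 scalings. A scaling moves all genes nearly alike, so this difference could hardly change with it. Without EV library 2 it was 0.11, and without EV library 3 it was 0.38. The host genes' own median turned to -0.072 with all uniquely aligned reads. Host genes held 0.433% ± 0.0534 of gene counts in EV and 0.859% ± 0.0778 in PRL3 libraries, and of all uniquely aligned reads 0.266% ± 0.00718 and 0.272% ± 0.0409 (SD, n = 3; exact permutation tests, two-sided p = 0.1 and 0.8).

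**Figure D1:**
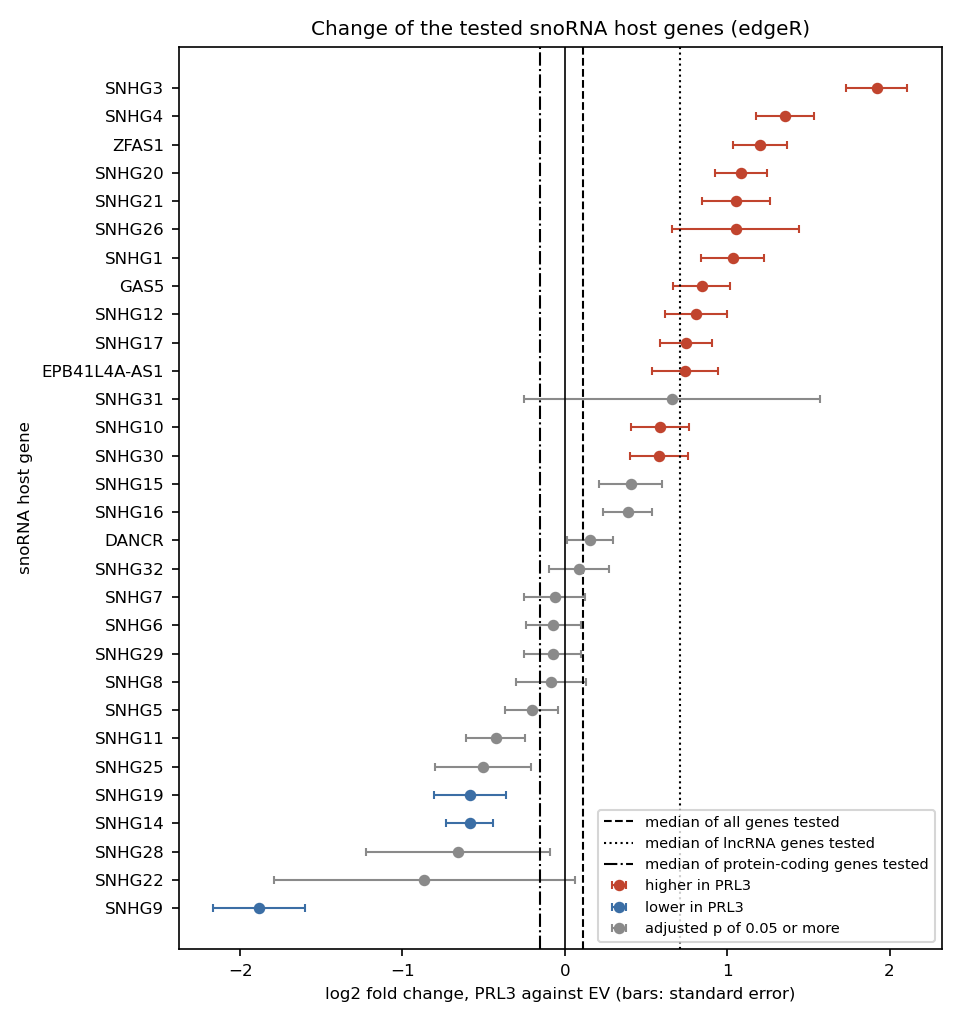
Log2 fold change of the 30 tested snoRNA host genes, PRL3 against EV, with the standard error as a bar and the medians of all genes, lncRNA genes and protein-coding genes as vertical lines. SNHG3 stands farthest to the right at 1.92 and SNHG9 farthest to the left at -1.88, with 13 genes called higher and 3 called lower.

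GAS5, a host of C/D box snoRNAs whose spliced RNA is a known decoy of the glucocorticoid receptor, had the most counts of all host genes. Its normalized counts were 41688, 32312 and 42719 in the EV libraries and 57023, 73574 and 78729.6 in the PRL3 libraries, and it made up 14.4% to 17.4% of the host genes' reads in EV and 19.6% to 21.5% in PRL3. Every PRL3 library lay above every EV library, and the log2 fold change was 0.84 ± 0.18 (SE; edgeR adjusted p = 0.0019). Per kilobase of exon in GENCODE 44, GAS5 stood at 7889 normalized counts in EV and 14148 in PRL3. Only SNHG19 was higher per kilobase in EV, at 11315. These lengths are not those of the annotation used for the counts, so the ranking per kilobase is approximate. With all uniquely aligned reads as library size its log2 fold change was 0.37 and the call was lost (edgeR adjusted p = 0.165).

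Among other host genes with many counts, SNHG1 and SNHG17 were called higher, while SNHG16 and SNHG29 had no call. SNHG1, which carries C/D box snoRNAs in its introns, had 14997, 9015 and 14130.5 normalized counts in EV and 23092, 25931 and 29052 in PRL3 libraries. It rose 2.05-fold without overlap (log2 fold change 1.03 ± 0.19, edgeR adjusted p = 0.000886). SNHG17, host of the SNORA71 family of H/ACA box snoRNAs, had 11909.6, 13837 and 15526 in EV and 20172, 26037 and 23075 in PRL3 and rose 1.68-fold (log2 fold change 0.75 ± 0.16, edgeR adjusted p = 0.00236), a call lost with all uniquely aligned reads as library size (0.28, edgeR adjusted p = 0.259). SNHG16, host of SNORD1A to SNORD1C, had 15430.5, 13711 and 17709 and 19741, 20645 and 20914. Its groups did not overlap, and its log2 fold change of 0.39 ± 0.15 missed the threshold (edgeR adjusted p = 0.0521), which it passed with DESeq2 (adjusted p = 0.0397) and with limma-voom (0.0268). SNHG29, host of SNORD49A, SNORD49B and SNORD65, had 21119, 23349 and 22791 in EV and 15827, 24274 and 23720.5 in PRL3, so that 1 PRL3 library lay below all EV libraries and the other two above them (log2 fold change -0.076 ± 0.18, edgeR adjusted p = 0.761).

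**Figure D2:**
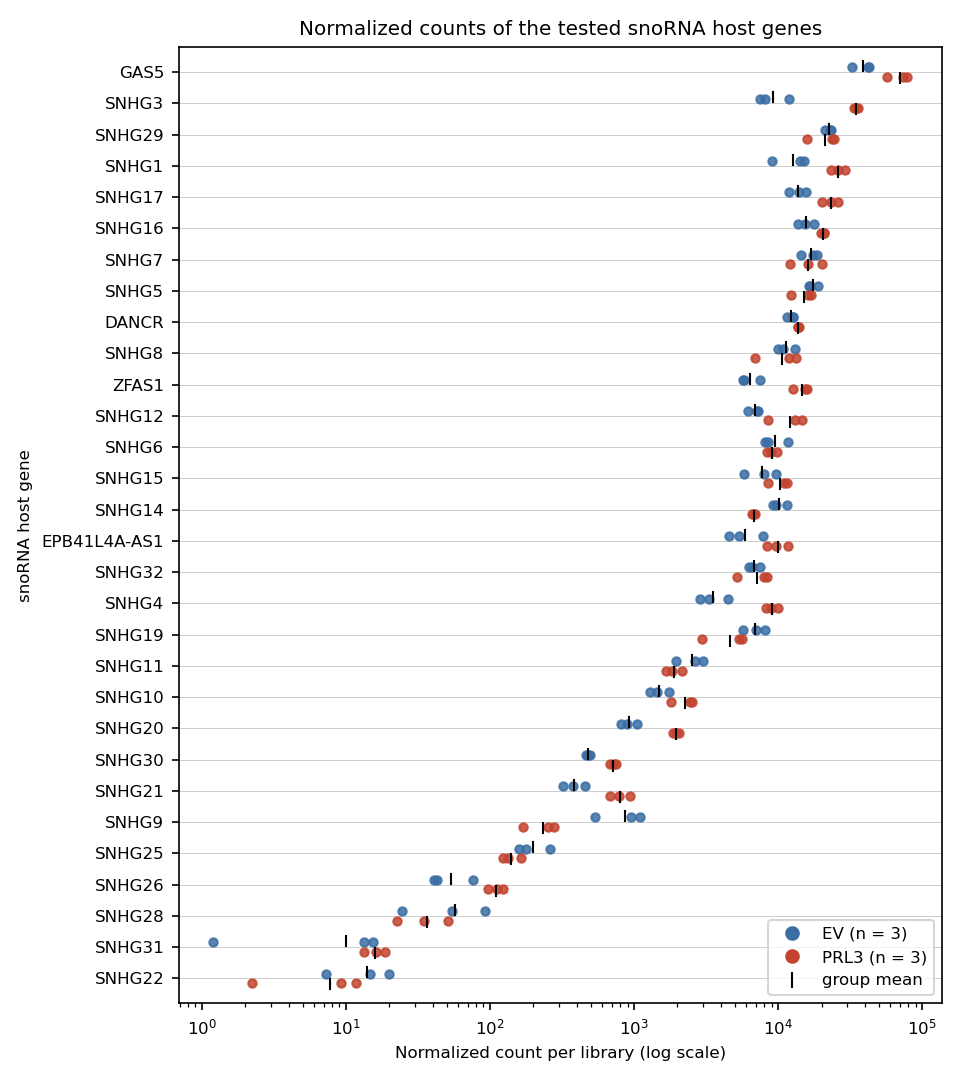
Normalized counts of each tested snoRNA host gene in the 3 EV and 3 PRL3 libraries on a log axis, ordered by mean count, with the group means as black ticks. GAS5 stands highest in both groups, the points of SNHG3 show the widest gap between groups among the genes with over 1000 counts, and those of SNHG29, SNHG7, SNHG8 and SNHG32 overlap.

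SNHG3, which hosts the H/ACA box snoRNAs SNORA73A and SNORA73B, showed the largest rise of all 30 host genes. It had 8140.3, 7455 and 11949 normalized counts in EV and 33495, 35958 and 34904 in PRL3 libraries, a 3.79-fold difference (log2 fold change 1.92 ± 0.19, edgeR adjusted p = 1.29e-05). SNHG4, host of the related SNORA74A and SNORA74D, had 3316, 2865 and 4453 in EV and 8278, 10049 and 8893 in PRL3. It rose 2.56-fold (log2 fold change 1.36 ± 0.18, edgeR adjusted p = 6.38e-05). ZFAS1, which starts beside the gene ZNFX1 and hosts SNORD12, SNORD12B and SNORD12C, had 5657, 5828 and 7524 in EV and 12636, 15342 and 15833 in PRL3 and rose 2.30-fold (log2 fold change 1.20 ± 0.17, edgeR adjusted p = 8.75e-05). None of these 3 genes overlapped between groups, and each stayed called under every scaling and without any 1 library. SNHG3 shares annotated exon with RCC1 on its strand and SNHG4 with MATR3, so the reads of each pair could be split or lost in counting.

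The hosts of scaRNAs formed a small set of 4, of which 3 rose, 1 passed no threshold and none fell. SNHG20, host of SCARNA16, had 891, 813 and 1046 normalized counts in EV and 1939, 2043 and 1851 in PRL3 libraries and rose 2.12-fold (log2 fold change 1.08 ± 0.16, edgeR adjusted p = 0.000165). SNHG21, host of SCARNA15, had 323, 375.4 and 454 in EV and 676, 938 and 779 in PRL3 and rose 2.08-fold (log2 fold change 1.05 ± 0.21, edgeR adjusted p = 0.00121). In both genes each PRL3 library lay above each EV library. SNHG10, host of SCARNA13, rose by 0.58 ± 0.18 on the log2 scale (edgeR adjusted p = 0.0182), a call lost without PRL3 library 10 or 11 (edgeR adjusted p = 0.0757 and 0.0916) and with all uniquely aligned reads as library size (0.657). SNHG22, host of SCARNA17, had 2.23 to 20.0 normalized counts in a library and a log2 fold change of -0.87 ± 0.93.

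The remaining genes that rose were hosts of single or few snoRNAs. SNHG12, which holds SNORD99 beside H/ACA box snoRNAs, rose by 0.81 ± 0.19 on the log2 scale (edgeR adjusted p = 0.00425). EPB41L4A-AS1, host of SNORA13, rose by 0.74 ± 0.20 (edgeR adjusted p = 0.00961), and SNHG30, host of SNORD7, by 0.58 ± 0.18 (edgeR adjusted p = 0.0171). Each of these calls rested on part of the choices made: all were lost with all uniquely aligned reads as library size, that of EPB41L4A-AS1 without PRL3 library 11 (edgeR adjusted p = 0.0578) and that of SNHG30 without PRL3 library 10 or 11 (0.0799 and 0.0665). SNHG26, host of SNORD93, was the least counted gene that rose, with 76.7, 40.9 and 42.7 normalized counts in EV and 112, 96.7 and 123 in PRL3 libraries (log2 fold change 1.05 ± 0.39, edgeR adjusted p = 0.044). Its groups did not overlap, but the call was lost without EV library 2 or 3 or any 1 PRL3 library (edgeR adjusted p = 0.0638 to 0.156), with RLE size factors and with all uniquely aligned reads as library size (0.277).

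SNHG9, a short gene that hosts the H/ACA box snoRNA SNORA78 and starts back to back with the ribosomal protein gene RPS2, fell most. It had 956, 1099.7 and 535 normalized counts in EV and 169.9, 279 and 251 in PRL3 libraries, 3.69-fold lower without overlap (log2 fold change -1.88 ± 0.28, edgeR adjusted p = 0.000163). SNHG14, the long imprinted host of the SNORD115 and SNORD116 clusters whose far end runs antisense to UBE3A, had 11441, 9733 and 9277 in EV and 6619, 6878 and 6798 in PRL3. It fell 1.50-fold without overlap (log2 fold change -0.59 ± 0.14, edgeR adjusted p = 0.00547), a call that was lost with the sum of gene counts as library size, and it shares annotated exon with SNRPN. SNHG19, host of SNORD60, had 5712, 8145 and 6985 in EV and 2945, 5638 and 5322 in PRL3. Its groups did not overlap, its log2 fold change was -0.58 ± 0.22 (edgeR adjusted p = 0.0494), and the call was lost without EV library 2 or 3 or PRL3 library 9 or 11 (edgeR adjusted p = 0.0674 to 0.209), with upper-quartile scaling and with the sum of gene counts as library size.

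For 14 tested host genes the adjusted p was 0.05 or more. Among hosts of H/ACA box snoRNAs, the log2 fold change was 0.40 ± 0.19 for SNHG15, which holds SNORA9, 0.15 ± 0.14 for DANCR, which holds SNORA26, -0.062 ± 0.19 for SNHG7, -0.084 ± 0.21 for SNHG8 and -0.43 ± 0.18 for SNHG11. DANCR stood out for its small spread, with 11488, 12732 and 12756 normalized counts in EV and 13667, 13628 and 13874 in PRL3 libraries and no overlap. Among hosts of C/D box snoRNAs, it was 0.086 ± 0.18 for SNHG32, -0.071 ± 0.17 for SNHG6 and -0.20 ± 0.16 for SNHG5. SNHG25, a short host of SNORD104 and SNORA50C, stood at -0.50 ± 0.30. SNHG31 and SNHG28 had under 100 normalized counts in each library, and their values of 0.66 ± 0.91 and -0.66 ± 0.57 came with standard errors over 0.5. SNHG27 had 0 counts in the EV libraries and 2 or 3 in the PRL3 libraries, and SNHG18 had 0 in all 6, which allows up to 3 counts in a library, so neither was tested.

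By the kind of RNA carried, 4 of 11 tested hosts of C/D box snoRNAs rose and 2 fell (median log2 fold change 0.086), and 4 of 11 tested hosts of H/ACA box snoRNAs rose and 1 fell (median 0.40). GAS5 is not among the 11 hosts of C/D box snoRNAs, because GENCODE 44 lists none inside it, and with it 5 of 12 rose (median 0.24). Both kinds thus held genes that rose and genes that fell, as did all genes tested (20.0% and 22.7%) and lncRNA genes (27.9% and 2.18%). The 2 hosts of both boxes, SNHG12 and SNHG25, gave 1 rise and 1 value without a call. Over the 30 genes, Spearman's rho was 0.022 between the mean normalized count in EV, itself part of the fold change, and log2 fold change. It was -0.028 between the share of the gene span annotated as exon in GENCODE 44 and log2 fold change. Both are given as descriptions over genes that share the same 6 libraries. The exon share rests on GENCODE 44, while the counts rest on the authors' Ensembl annotation, so it does not show which bases were counted. For 6 hosts (SNHG1, SNHG8, SNHG9, SNHG15, SNHG19 and EPB41L4A-AS1) the exons in GENCODE 44, retained introns of some transcripts included, cover the whole span. Reads from introns can count for these genes only where the annotation used for the counts also has exon there. Of these 6 hosts 2 rose, 2 fell and 2 passed no threshold.

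Many genes of the translation machinery start their RNA with a C and a run of pyrimidines, the terminal oligopyrimidine motif, and hosts such as GAS5 are known to do so. GAS5 has none at the RefSeq start read for it here. RefSeq's promoter table for GRCh38.p14 held 28 of the 32 host genes, and its annotated start base was read on the strand of the gene. A C at the start followed by at least 3 bases that are C or T was found in 9 of these 28 (32.1%). Over the first listed promoters of all gene symbols in the table it was found in 1489 of 27305 (5.45%). The windows of the 8 tested hosts with such a run are shown because they include genes that rose, fell and had no call, followed by SNHG3, which rose most and has none at its annotated start. Each holds 15 bases before the start and 25 from it, with the run in capitals.
SNHG4 (chr5:139274086-139274125, + strand): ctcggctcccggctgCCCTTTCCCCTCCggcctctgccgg
SNHG12 (chr1:28581849-28581888, - strand): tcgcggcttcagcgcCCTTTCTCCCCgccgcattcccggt
ZFAS1 (chr20:49278627-49278666, + strand): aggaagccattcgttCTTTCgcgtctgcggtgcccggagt
SNHG26 (chr7:22854225-22854264, + strand): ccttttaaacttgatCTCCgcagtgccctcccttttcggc
SNHG32 (chr6:31834901-31834940, + strand): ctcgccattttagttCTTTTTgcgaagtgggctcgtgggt
SNHG7 (chr9:136728160-136728199, - strand): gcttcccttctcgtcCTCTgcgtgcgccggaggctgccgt
SNHG5 (chr6:85678709-85678748, - strand): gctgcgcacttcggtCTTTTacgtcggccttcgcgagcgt
SNHG19 (chr16:2155334-2155373, - strand): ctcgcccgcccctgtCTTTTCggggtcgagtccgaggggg
SNHG3 (chr1:28505928-28505967, + strand): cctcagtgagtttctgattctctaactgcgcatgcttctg

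Of the 8 tested hosts with a run at the annotated start, 4 rose, 1 fell and 3 had no call. Among the 18 tested hosts in the table without one 9 rose and 1 fell. The run thus stood before genes of all 3 outcomes, as the windows of SNHG4, SNHG19 and SNHG5 show. The start in use in A375 cells was not measured by these counts.

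Within 31 of the 32 host genes, GENCODE 44 places 145 snoRNA or scaRNA genes that have a row in the counts, 84 of them in SNHG14. It lists none inside GAS5. Of the 61 outside SNHG14, 43 had 0 counts in all 6 libraries. Of these 43, 39 overlap an exon of their host in GENCODE 44. A read on exons of both genes in the annotation used for the counts is set aside as ambiguous. The remaining 18 had counts and 16, in 11 hosts, were tested: 9 rose, 3 fell and 4 had no call, with a median log2 fold change of 0.84. Among those tested, SNORD12B, SNORA71A, SNORA71C, SNORA71D, SNORA13, SNORA26, SCARNA13 and SNORA60 also overlap a host exon in GENCODE 44. Reads of theirs may have been set aside where the annotation used for the counts has the same overlap. The ambiguous share was lower in every PRL3 library, and its part in these changes and in the ratios below was not tested. A read from unspliced host intron that reaches a snoRNA can also count for it. The share of reads outside annotated exons was higher in every PRL3 library. Counts on hosted RNAs, and the ratios below, thus do not separate snoRNAs already cut out from host RNA not yet spliced. Over all snoRNA and scaRNA genes tested 37.7% rose and 5.31% fell, with a median log2 fold change of 1.15. The RNAs below are shown because they hold large changes in both directions, and their sequences were read from GRCh38 at the GENCODE 44 coordinates. Capitals mark the boxes that give each class its name where a search found them: the C box tgatga near the start and the D box ctga near the end of a C/D box snoRNA, and the aca box close to the end of an H/ACA box snoRNA or of the scaRNA.
SNORD12B (chr20:49280319-49280409, + strand): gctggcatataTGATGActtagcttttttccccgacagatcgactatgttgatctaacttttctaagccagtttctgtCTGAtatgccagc
SNORD12C (chr20:49278940-49279028, + strand): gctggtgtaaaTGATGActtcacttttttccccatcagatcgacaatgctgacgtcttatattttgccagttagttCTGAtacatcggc
SNORD99 (chr1:28578749-28578822, - strand): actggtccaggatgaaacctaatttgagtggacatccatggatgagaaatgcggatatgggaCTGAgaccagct
SNORD104 (chr17:64146083-64146152, + strand): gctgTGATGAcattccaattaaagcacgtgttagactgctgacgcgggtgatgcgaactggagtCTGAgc
SNORA71C (chr20:38429670-38429803, - strand): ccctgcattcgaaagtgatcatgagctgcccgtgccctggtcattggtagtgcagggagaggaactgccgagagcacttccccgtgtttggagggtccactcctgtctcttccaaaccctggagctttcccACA
SNORA73B (chr1:28508559-28508762, + strand): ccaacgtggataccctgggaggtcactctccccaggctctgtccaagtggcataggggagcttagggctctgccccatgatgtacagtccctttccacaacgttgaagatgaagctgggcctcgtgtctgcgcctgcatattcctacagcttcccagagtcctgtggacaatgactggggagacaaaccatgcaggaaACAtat
SCARNA13 (chr14:95533355-95533629, - strand): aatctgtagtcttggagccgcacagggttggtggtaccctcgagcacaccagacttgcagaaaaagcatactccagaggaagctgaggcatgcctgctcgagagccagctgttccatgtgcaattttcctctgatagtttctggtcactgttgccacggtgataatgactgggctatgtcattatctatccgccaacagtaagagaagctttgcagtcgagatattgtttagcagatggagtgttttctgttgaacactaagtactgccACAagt

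SNORD12B, inside ZFAS1, rose most. It had 692, 638 and 1008 normalized counts in EV and 3319, 3250.3 and 3649 in PRL3 libraries, a 4.36-fold difference (log2 fold change 2.13 ± 0.19, edgeR adjusted p = 9.64e-06). Its neighbour SNORD12C rose by 1.21 ± 0.22 on the log2 scale, close to the 1.20 of ZFAS1 itself. SNORD99, inside SNHG12, had 297, 269.5 and 424 in EV and 799.98, 1008 and 996 in PRL3 libraries and rose by 1.50 ± 0.22 (edgeR adjusted p = 0.000128), where SNHG12 rose by 0.81. In SNHG17 all 4 tested copies of SNORA71 rose, from 0.94 ± 0.20 for SNORA71D to 1.61 ± 0.18 for SNORA71C. SNORA71B, the most counted of them, had 672, 665 and 932 in EV and 2035, 2234 and 1874 in PRL3 libraries. With all uniquely aligned reads as library size the call of SNORA71D was lost (edgeR adjusted p = 0.0752). These copies are close to each other in sequence, so the split of reads among them is uncertain. SNORA13 in EPB41L4A-AS1 rose by 1.12 ± 0.23 and SNORA26 in DANCR by 0.74 ± 0.19, the latter a call lost without PRL3 library 11 (edgeR adjusted p = 0.0626) and with all uniquely aligned reads as library size (0.297).

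The RNAs that fell came from hosts that rose or had no call. SNORA74A in SNHG4 had 231, 470.4 and 644 normalized counts in EV and 98.8, 211 and 179 in PRL3 libraries, without overlap (log2 fold change -1.46 ± 0.36, edgeR adjusted p = 0.00581), although SNHG4 rose. SNORA74D in the same host, an H/ACA box snoRNA, had 504, 656 and 604 and 708, 878 and 845 and a log2 fold change of 0.46 ± 0.19 (edgeR adjusted p = 0.0597). The paralogs thus stood on opposite sides of 0 in the same host, and the difference between them was not tested. SCARNA13 in SNHG10 had 771, 497 and 1215 in EV and 197, 500.1 and 383 in PRL3 libraries. Its groups overlapped, and its log2 fold change of -1.20 ± 0.34 (edgeR adjusted p = 0.0127) was not called without EV library 3 or PRL3 library 9 (0.0553 and 0.0602). SNORD104 in SNHG25 had 934, 1887 and 872 and 346, 554 and 809 (log2 fold change -1.11 ± 0.32, edgeR adjusted p = 0.0138), a call lost without EV library 2 or PRL3 library 9 (0.0941 and 0.0716). Without PRL3 library 9, 1 hosted RNA was called lower.

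SNORA73B, the most counted of the hosted RNAs, had 2899.8, 2676 and 5294 normalized counts in EV and 2359, 3742 and 3792 in PRL3 libraries. These overlapped, and its log2 fold change was -0.14 ± 0.25 beside the 1.92 of its host SNHG3. SNORD1B in SNHG16 and SNORA60 in SNHG11 stood at 0.65 ± 0.39 and 0.54 ± 0.39 without a call. Of the 4 tested RNAs of at least 150 bases 1 rose and 2 fell, and of the 12 shorter ones 8 rose, 1 fell and 3 had no call. In SNHG14 23 of the 30 SNORD116 copies were tested, of which 4 rose and none fell (median log2 fold change 0.71). Beside this, 37.7% of all snoRNA and scaRNA genes tested rose and 5.31% fell (median 1.15). Of the 49 SNORD115 copies none was tested, and 48 had 0 counts in all 6 libraries. The SNORD116 copies are near-identical copies, and their reads align to several places, so single values are not given.

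**Figure D3:**
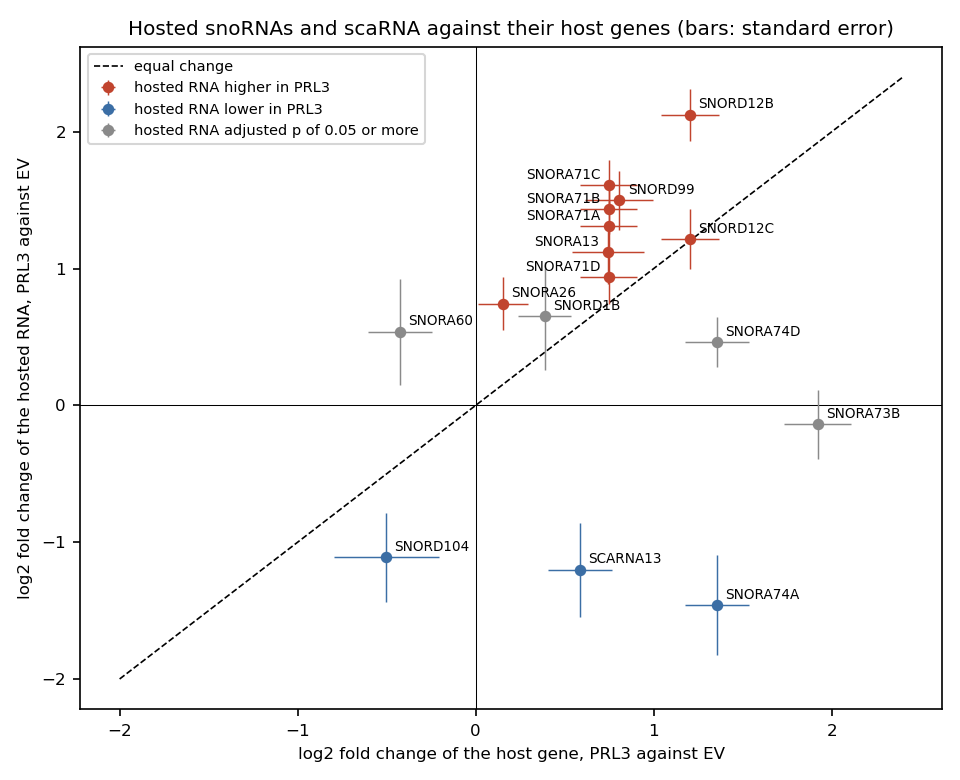
Log2 fold change of the 16 tested snoRNAs and scaRNA outside SNHG14 on the vertical axis against that of their host gene on the horizontal axis, PRL3 against EV, with standard errors as bars and equal change as the dashed line. SNORD12B and the SNORA71 copies lie above the line, and SNORA73B, SNORA74A and SCARNA13 lie far below it.

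Counts on hosted RNAs were then set against counts on the host exons within each library, a ratio that no scaling of libraries changes. It could be formed for 12 of the host genes and for 131 hosts of all kinds, of which 46.6% had a higher and 5.34% a lower ratio in PRL3 cells (limma, adjusted p under 0.05). Of the 12 host genes none had a higher ratio and 3 had a lower one. SNHG3 had 35.6, 35.9 and 44.3 hosted counts per 100 host counts in EV libraries and 7.04, 10.4 and 10.9 in PRL3 libraries, a log2 difference of -2.05 ± 0.36 (SE; limma adjusted p = 0.00847). SNHG10 went from 59.4, 34.6 and 69.0 to 10.9, 20.6 and 15.2 (log2 difference -1.79 ± 0.44, limma adjusted p = 0.0171). SNHG4 went from 22.2, 39.3 and 28.0 to 9.75, 10.8 and 11.5 (log2 difference -1.44 ± 0.37, limma adjusted p = 0.0198). In these 3 hosts the PRL3 values all lay under the EV values. The calls of SNHG4 and SNHG10 were lost without PRL3 library 9 or 11, which left 1 call, and that of SNHG4 also without library 10 (limma adjusted p = 0.0539 to 0.0640).

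The other 9 host genes gave log2 differences from -0.62 for SNHG25 to 1.00 for SNHG11, none past the threshold, and the median over the 12 was 0.42. In ZFAS1 the hosted RNAs gave 27.3, 30.1 and 32.7 counts per 100 host counts in EV and 42.5, 42.8 and 39.3 in PRL3 libraries, and in SNHG17 19.8, 18.8 and 21.4 and 32.5, 28.9 and 28.4. Neither overlapped between groups, and the log2 differences were 0.47 ± 0.32 and 0.58 ± 0.32 (limma adjusted p = 0.237 and 0.159). SNHG25 was the sole host of the 12 with more counts on hosted RNAs than on its own exons, between 210 and 723 per 100. SNHG14 had a log2 difference of 0.97 ± 0.38 (limma adjusted p = 0.0686), which was 1.61 and passed the threshold (limma adjusted p = 0.0180) when snoRNAs overlapping an annotated exon of the host were left out.

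**Figure D4:**
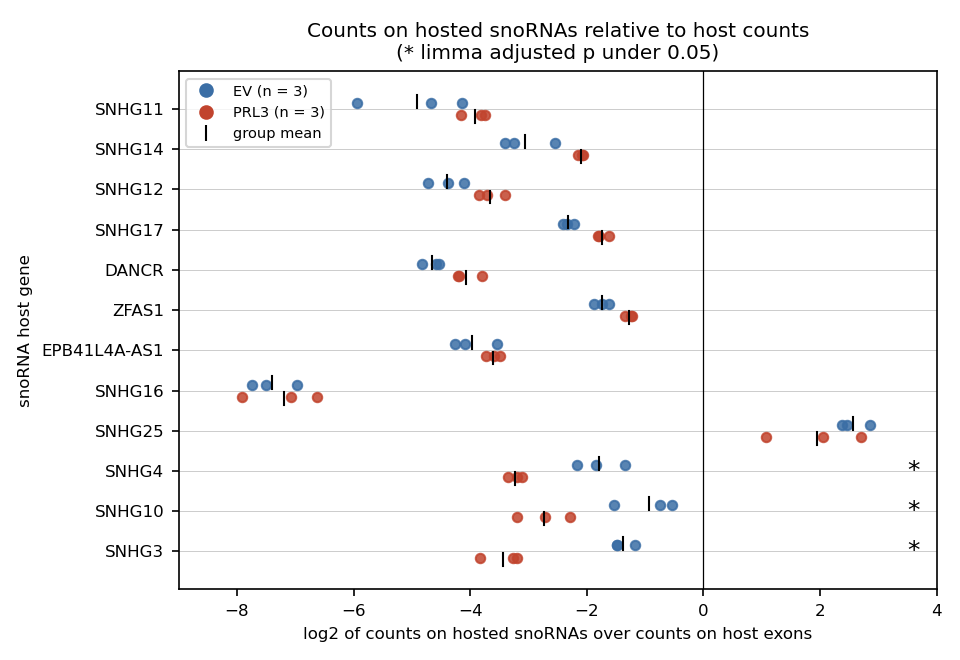
Log2 of counts on hosted snoRNAs over counts on host exons in each of the 3 EV and 3 PRL3 libraries, for the 12 snoRNA host genes with enough of both, with group means as black ticks. The PRL3 points of SNHG3, SNHG10 and SNHG4 lie below all their EV points, and those of ZFAS1, SNHG17, DANCR, SNHG12 and SNHG14 lie above.

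Protein-coding genes that carry snoRNAs were counted in the same way as a comparison. Of 28 ribosomal protein genes that host snoRNAs 27 fell, with a median log2 fold change of -1.64, and among them RPL13A stood at -2.35 ± 0.19 and RPL37 at -0.60 ± 0.16. Of 205 other protein-coding hosts tested 35 rose (17.1%) and 58 fell (28.3%, median -0.090), and of 21 other lncRNA hosts 10 rose and none fell (median 1.00). Over all protein-coding genes tested 15.2% rose and 31.6% fell, and over lncRNA genes 27.9% rose and 2.18% fell. The ratio of hosted to host counts rose in 13 of 13 ribosomal protein hosts (median log2 difference 2.22) and in 48 of 103 other protein-coding hosts, with 4 lower (median 1.70), beside 0 of 12 snoRNA host genes. In 3 other lncRNA hosts no ratio was called. The difference between these groups of hosts was not tested. Among the 12 snoRNA host genes, exons in GENCODE covered from 5.10% (SNHG16) to 100% (EPB41L4A-AS1) of the gene span. Where the annotation used for the counts also has exon over introns, host counts can include intron reads. Reads on hosted RNAs can then be set aside as ambiguous. This share was not compared between the groups of hosts, so their ratios may differ in what they count.

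**Figure D5:**
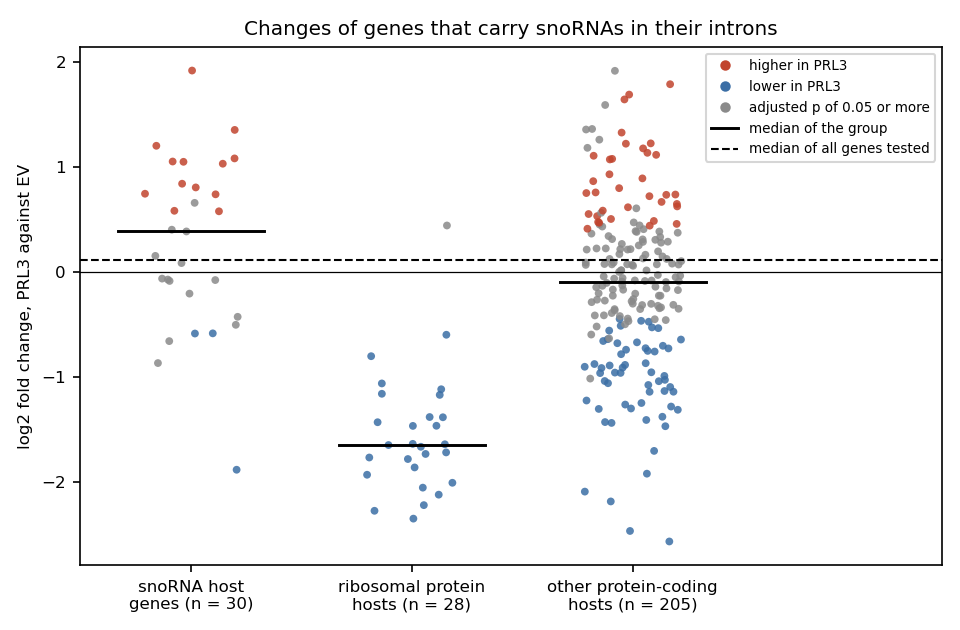
Log2 fold changes, PRL3 against EV, of the 30 tested snoRNA host genes, 28 ribosomal protein hosts and 205 other protein-coding hosts, each point a gene, with the median of each group as a bar and that of all genes tested as the dashed line. The snoRNA host genes have their median at 0.40, the ribosomal protein hosts at -1.64 with 27 called lower, and the other hosts at -0.090.

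A protein-coding gene starts on the opposite strand within 1000 bases of the start of 8 host genes. All 8 partners were called, 4 higher and 4 lower, where 15.2% of tested protein-coding genes rose and 31.6% fell. Where both genes of a pair were called, GAS5 and ZFAS1 rose with ZBTB37 (0.88 ± 0.15) and ZNFX1 (0.44 ± 0.16), and SNHG9 and SNHG19 fell with RPS2 (-2.28 ± 0.23) and TRAF7 (-1.41 ± 0.16). SNHG1 and SLC3A2, the heavy chain of an amino acid transporter that starts 51 bases away, went opposite ways: SNHG1 rose by 1.03 ± 0.19 and SLC3A2 fell by 0.78 ± 0.17 (edgeR adjusted p = 0.00271). The partner of SNHG18, SEMA5A, rose by 2.60 ± 0.23, while SNHG18 had no count. BARD1, beside SNHG31, rose by 0.88 ± 0.16, and ACAA2, beside SNHG22, fell (-1.42 ± 0.17). SNHG31 and SNHG22 had no call. With all uniquely aligned reads as library size the calls of ZBTB37 (0.40), BARD1 (0.41) and ZNFX1 (-0.036), like that of GAS5, were lost (edgeR adjusted p = 0.0602, 0.0726 and 0.892). That of ZNFX1 was also lost with RLE size factors (edgeR adjusted p = 0.0589), and that of SLC3A2 with the sum of gene counts as library size (-0.29, edgeR adjusted p = 0.103).

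Genes that build snoRNPs and that process or degrade host RNA were described from lists of their own, to be read against the 15.2% of protein-coding genes that rose and the 31.6% that fell. Of 18 snoRNP proteins and assembly factors 10 fell and 2 rose (median log2 fold change -0.53). The H/ACA core protein NHP2 stood at -1.63 ± 0.18, the assembly helicase RUVBL2 at -1.63 ± 0.18 and the H/ACA core protein NOP10 at -1.56 ± 0.17, while the assembly factors ZNHIT6 and NAF1 rose by 0.69 ± 0.22 and 0.63 ± 0.16. Of 14 factors of nonsense-mediated decay 4 fell and 1 rose (median 0.0091), among them the exon junction proteins EIF4A3 at -1.25 ± 0.16 and MAGOH at -1.10 ± 0.20, with SMG9 higher at 0.47 ± 0.15. UPF1, the central helicase of this decay, had no call (-0.45 ± 0.17, edgeR adjusted p = 0.053). Of 15 genes of the exosome and of intron debranching 6 fell and 1 rose (median -0.43), with EXOSC4 at -1.74 ± 0.20 and EXOSC3 at 0.43 ± 0.15. The 4 rises in these lists (ZNHIT6, NAF1, SMG9 and EXOSC3) were all lost with all uniquely aligned reads as library size, where values stood between -0.047 for EXOSC3 and 0.20 for ZNHIT6 and 31 list genes fell, while the sum of gene counts as library size gave 16 that rose and 13 that fell. DBR1, which opens intron lariats, stood at -0.16 ± 0.16 without a call. In bulk libraries a lower count can come from fewer cells with the RNA or from less RNA per cell, which cannot be told apart.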

How the data were processed

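The authors aligned the paired reads of 150 bases to GRCh38 with STAR 2.5.1b and deposited raw counts of reads per gene, made with htseq-count of HTSeq 0.6.1 on the reverse strand and Ensembl annotation release 91. A read that lies on exons of 2 genes is ambiguous in these counts, and a read that aligns to several places is left out. No pooling or normalization was applied. The files name genes by Ensembl identifier, and 57532 of 58243 matched GENCODE 44, which gave symbols, exons and hosted snoRNAs. A gene known to RefSeq by another SNHG symbol but named otherwise in GENCODE was not taken. The members and the lists of genes were chosen with earlier results of these data known.

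Tests of the deposited counts used edgeR 4.0.16 in R 4.3.3 (TMM, filterByExpr by group, quasi-likelihood test over 23884 genes, Benjamini-Hochberg adjustment, threshold 0.05), and exact permutation tests are two-sided, with 0.1 the smallest p that 3 libraries against 3 allow. Ratios of hosted to host counts were fitted with limma 3.58.1 on log2 values with a pseudocount of 0.5, for hosts with a mean of at least 10 counts of each kind. Alternatives were other scalings (RLE, upper quartile, sum of gene counts, all uniquely aligned reads), DESeq2 1.42.0, limma-voom, other low-count filters, a threshold of 0.01 and leaving out each library. The procedures were tested on simulated data. No 2 libraries agreed within sampling noise (chi-square per gene at least 25.7). Every tested host gene is named. Up to 6 called genes with the largest change in each direction and the 6 with the most counts are given by library. So is the hosted RNA of each with the most counts, except SNORD1B, SNORD93, the SNORD116 copies and RNAs with 0 counts. All partners and up to 3 list genes per direction are named. Other hosted RNAs and DBR1, UPF1, RPL13A and RPL37 were named after their values were seen. The limit of 3 counts given for a count of 0 covers counting error only, while SDs and SEs include the spread between libraries.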

Additional observations from a re-analysis of the deposited data

Results flagged for a closer look

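Reads outside annotated exons form no part of the gene counts. They made up 33.3% ± 6.75 of uniquely aligned reads in EV and 66.3% ± 3.18 in PRL3 libraries (SD, n = 3; two-sided exact permutation p = 0.1, the smallest possible), with the 3 PRL3 values above the 3 EV values. For host genes these reads include introns from which snoRNAs are cut and which are not annotated as exon. Their position along the genes was not analysed here.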

How the results depend on the processing

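No paired analysis was possible because the EV and PRL3 libraries share no replicate numbers. Host gene counts by direction moved most with the scaling: library size alone gave 1 lower, and all uniquely aligned reads 6 higher and 8 lower. For hosted RNAs, 1 was lower with library size alone, at a threshold of 0.01 and without PRL3 library 9. Protein-coding hosts (85 lower, 35 higher) gave 138 lower and 9 higher with all uniquely aligned reads, 91 higher with library size alone and 20 higher at 0.01. The 3 lists of RNA factors together (20 lower, 4 higher) gave 31 and 0 with all uniquely aligned reads, 13 and 16 with library size alone, 8 higher with upper-quartile scaling, 1 higher at 0.01 and 2 higher without EV library 2 or any 1 PRL3 library. Partners gave 1 higher with all uniquely aligned reads. For the ratio of hosted to host counts 1 was lower at 0.01, and 1 (SNHG14) was higher with a pseudocount of 5, a mean of at least 50 counts, snoRNAs free of host exons or without EV library 3.

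Leaving out 1 library gave 9 to 14 host genes higher and 2 to 4 lower, and without PRL3 library 11, 11 of the 16 calls were kept. It gave 9 to 15 hosted RNAs higher and 1 to 3 lower, 24 to 41 protein-coding hosts higher and 74 to 89 lower, 2 to 6 list genes higher and 16 to 22 lower, 3 to 4 partners higher and 4 lower, and ratios with 0 to 1 higher and 1 to 3 lower.

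No called host gene, hosted RNA or ratio named here changed sign under any alternative run. Log2 fold changes without a call changed sign with all uniquely aligned reads in SNHG15 (-0.060), SNHG16 (-0.085), DANCR (-0.32), SNHG32 (-0.39) and SNORA74D (-0.013). With upper-quartile scaling this held for SNHG7 (0.11), SNHG6 (0.11), SNHG29 (0.097), SNHG8 (0.086) and SNORA73B (0.033), and with library size alone for SNHG7 (0.42), SNHG6 (0.42), SNHG29 (0.41), SNHG8 (0.39), SNHG5 (0.28), SNHG11 (0.059), SNHG25 (0.0043) and SNORA73B (0.33). Leaving out 1 library gave -0.037 to 0.28 for SNHG32, -0.25 to 0.12 for SNHG7, -0.16 to 0.12 for SNHG6, -0.18 to 0.11 for SNHG29, -0.27 to 0.16 for SNHG8, -0.29 to 0.23 for SNORA73B and -0.091 to 0.55 for the ratio of SNHG16. The cause was not tested. Depth limits SNHG22, SNHG26, SNHG28 and SNHG31, and 102 hosted RNAs with 0 counts in all libraries, 59 of them in SNHG14, cannot be judged.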
